A study of Mus musculus with 10 samples.

Results

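The genes described here make cholesterol and fatty acids, or control that synthesis, and were followed in mouse erythroid cells. The 36 members were listed by name: 7 enzymes that build the isoprenoid precursors, 10 that turn them into cholesterol, 6 regulators, 1 sterol carrier, 5 enzymes of fatty acid synthesis, 6 of fatty acid elongation and desaturation, and 1 enzyme of phospholipid synthesis. Each had 1 row among the 23309 named genes of the RNA table. The authors tested 9619 genes for a difference between the RNA groups, 33 of the 36 members among them. Both deposited peak lists were searched for peaks that the authors assigned to a member as the nearest transcription start site.

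Cholesterol is made from acetyl-CoA through mevalonate, isoprenoid diphosphates, squalene and lanosterol. The transcription factors SREBP-1 and SREBP-2, encoded by Srebf1 and Srebf2, are held in the endoplasmic reticulum with the escort protein Scap and the retention proteins Insig1 and Insig2 while sterols are plentiful. When sterols fall, the complex moves to the Golgi, the factors are cleaved, and their nuclear parts switch on the genes of sterol and fatty acid synthesis. Dividing cells, erythroid precursors among them, need both products for new membrane.

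The series holds 10 libraries, 6 of RNA and 4 of chromatin. J2E cells are erythroid precursors from mouse fetal liver, immortalised in culture. J2E-KLF3-ER cells are J2E carrying KLF3, a repressor of the Krüppel-like factor family, fused to an estrogen receptor domain that 4-hydroxytamoxifen activates. RNA made during 30 minutes of labelling with 500 µM 4-thiouridine was sequenced from 3 J2E libraries and 3 J2E-KLF3-ER libraries. The J2E-KLF3-ER libraries were of 3 clones (A, C and E), all given 200 nM 4-hydroxytamoxifen. Of the J2E libraries, 2 received the drug and the third received ethanol. No J2E-KLF3-ER library was without the drug, so the transgene, its activation and the choice of clones cannot be told apart, and the drug was not fully matched between the groups. KLF3 binding was measured with an estrogen receptor antibody in J2E-KLF3-ER clone C. Binding of KLF1, the main erythroid activator of the family, was measured in clones A and C of K1-ER, erythroblasts that lack KLF1 and carry an inducible KLF1-ER fusion. Each factor had its own input library, each chromatin library pooled 3 replicates, and induction lasted 3 hours. Binding of the factors was thus measured in different cells.

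The RNA table gives 1 FPKM value per group (sequenced fragments normalised for transcript length and sequencing depth), pooled by the authors over the 3 libraries, so no value of a single library or its spread can be shown. The depth of the libraries is unknown. A difference is given as log2((J2E-KLF3-ER FPKM + 1)/(J2E FPKM + 1)), which understates the change of low genes. A gene is said to have risen or fallen where the authors' q-value, adjusted over the 9619 genes they tested, was below 0.05. Klf3 was listed at 7.46 FPKM in J2E and 180 in J2E-KLF3-ER, which may include transgene reads. The 10 erythroid marker genes had from 6.21 to 133 FPKM in J2E and from 9.28 to 103 in J2E-KLF3-ER, and their summed level was 674 and 509. Of these 10 markers, Klf1, Epor and Slc4a1 fell. Alas2, at 6.21 and 9.28 FPKM, and the row of Hbb-b1 and Hbb-b2, at 91.6 and 96.1, were higher in J2E-KLF3-ER. The remaining markers were lower, and neither these nor the higher ones were called. The other cell types were marked by shorter lists: 5 hepatocyte markers summed to 5.51 and 2.79 FPKM, with Apoa1 listed at 0 in both groups, 4 macrophage markers to 28.2 and 22.9, and 4 adipocyte markers to 0.351 and 0.407, with Adipoq and Fabp4 listed at 0 in both. Most of the hepatocyte sum was Afp, at 5.07 and 2.31 FPKM. Most of the macrophage sum was Csf1r, at 23.2 and 18.5 FPKM, while Emr1 was at 0.449 and 0.231. The part that these markers have in the differences below was not tested, and in bulk RNA fewer cells of a type and less RNA per cell cannot be told apart.

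Of the 33 tested members, 4 rose (Idi1, Sc4mol, Insig1 and Scd1) and 2 fell (Mid1ip1 and Agpat2). That is 12.1% and 6.06% of the tested members, where 0.821% of all tested genes rose and 1.90% fell. The other 27 were not called, with q-values in the authors' deposited table from 0.0513 to 0.901. Their differences ran from -0.56 to 1.03 with a median of 0.35, and 26 of the 27 were above 0. Over all tested members, 30 of 33 (90.9%) were higher in J2E-KLF3-ER, against 5140 of 9619 tested genes (53.4%). The median difference was 0.36 with quartiles of 0.18 and 0.50, against a median of 0.02 and quartiles of -0.18 and 0.21 over all tested genes. Most members thus lay a little above 0 without passing the test one by one, and 3 lay below it: Ebp, Mid1ip1 and Agpat2.

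The members were moderately active in both groups. Their J2E levels ran from 2.23 to 70.9 FPKM with a median of 16.4, against 12.4 over all tested genes, and their J2E-KLF3-ER median was 21.0 against 12.6. On this length-scaled measure Insig1 was the highest member in J2E at 70.9 FPKM, followed by Fasn at 62.9 and Stard4 at 47.7. Mvd was the lowest tested member at 2.23. Without a value per library, it cannot be said which neighbours in this order differ beyond their spread. For 8 members the listed interval was shared with another row, such as Mir33 for Srebf2 and Ctsb for Fdft1, and the sources used here do not say whether the strand was used in counting.

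**Figure D1:**
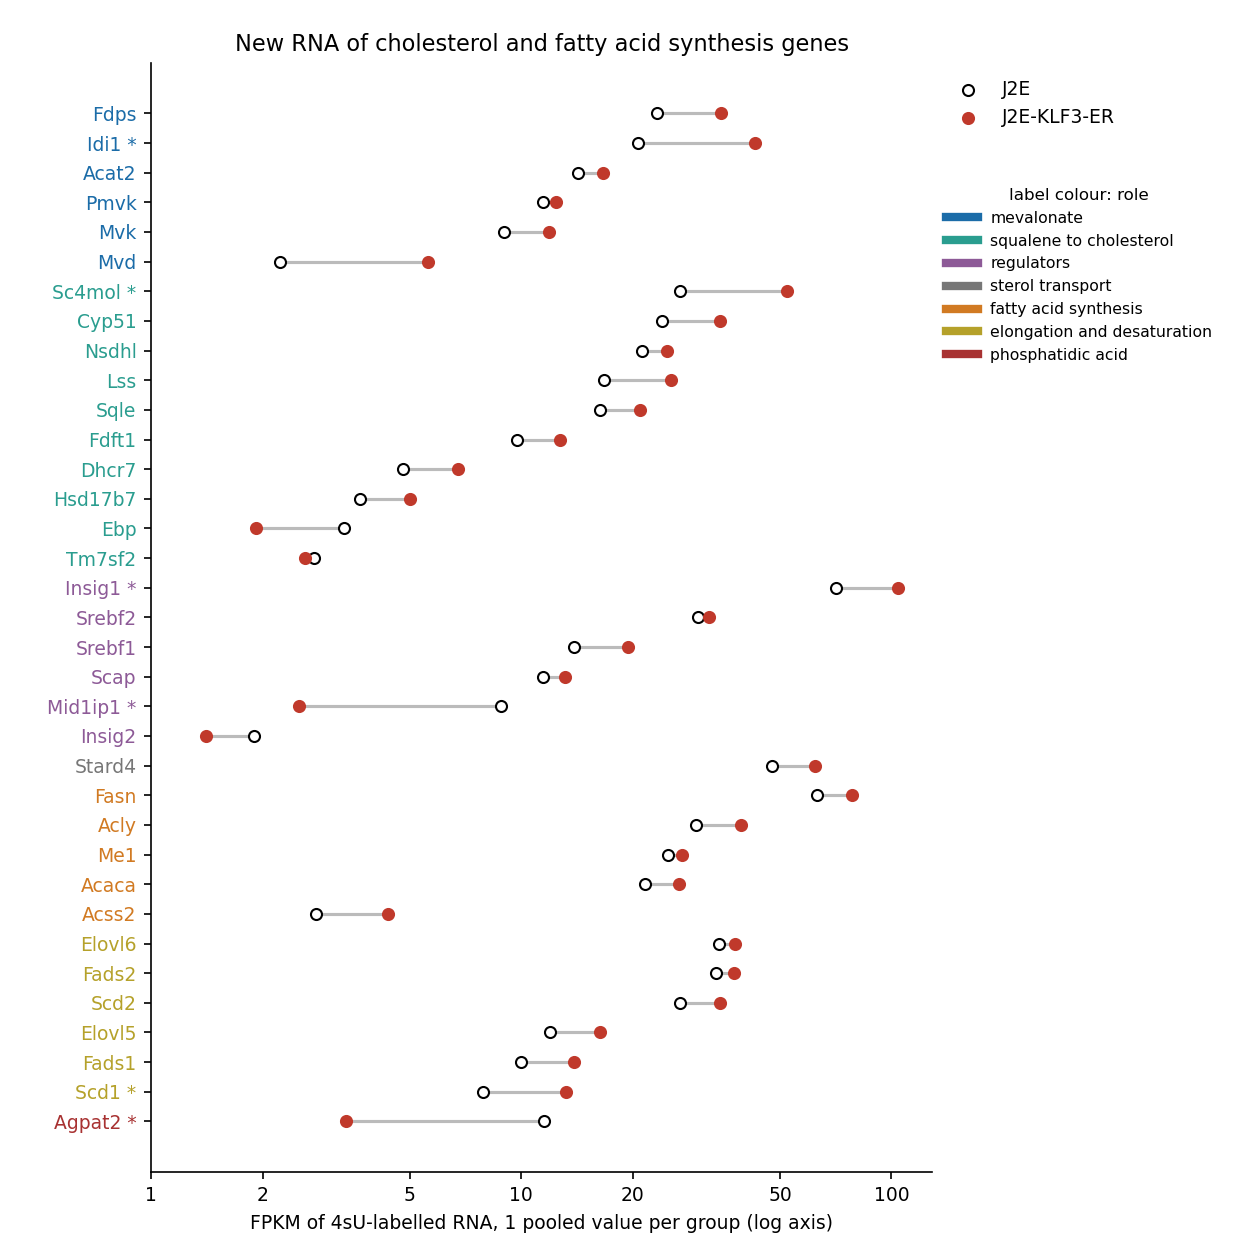
Levels of the members in both RNA groups, in FPKM on a log axis, 1 pooled value per group and member with no error bar, for 35 members (Hmgcs1, listed at 0, is left out), with label colours for the role and asterisks for the 6 called. Most members lie slightly higher in J2E-KLF3-ER (filled) than in J2E (open), while Mid1ip1 and Agpat2 lie clearly lower.

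The promoters of 6 members are shown because they hold the 2 genes that fell, 3 that rose and the promoter with the strongest KLF3 peak. Each is the 250 bases before the RefSeq start on GRCm38.p6, written along the gene's strand, and capitals mark each match to the KLF core CCNCNCCC or its reverse complement. The builds differ, so these positions are not those of the mm9 peaks. Mid1ip1 is chrX:10717115-10717364 and Srebf2 is chr15:82147019-82147268, both on the plus strand. Agpat2 is chr2:26604418-26604667 on the minus strand. These 3 had a KLF3 peak at the promoter.
Mid1ip1: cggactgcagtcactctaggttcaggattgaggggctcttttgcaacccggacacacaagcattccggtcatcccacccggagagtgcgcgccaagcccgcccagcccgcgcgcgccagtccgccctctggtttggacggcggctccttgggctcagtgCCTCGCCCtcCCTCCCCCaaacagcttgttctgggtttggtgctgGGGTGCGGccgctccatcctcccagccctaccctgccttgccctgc
Agpat2: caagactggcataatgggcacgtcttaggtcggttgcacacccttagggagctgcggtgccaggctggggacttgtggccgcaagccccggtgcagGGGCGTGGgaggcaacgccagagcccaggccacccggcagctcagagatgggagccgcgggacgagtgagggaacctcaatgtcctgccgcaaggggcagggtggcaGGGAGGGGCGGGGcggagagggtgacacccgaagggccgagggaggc
Srebf2: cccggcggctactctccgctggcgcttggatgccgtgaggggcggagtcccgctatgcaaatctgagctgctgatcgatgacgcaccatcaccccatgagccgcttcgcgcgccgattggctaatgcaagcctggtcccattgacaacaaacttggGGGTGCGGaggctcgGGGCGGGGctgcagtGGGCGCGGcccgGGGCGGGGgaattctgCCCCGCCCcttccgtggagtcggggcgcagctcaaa
Mid1ip1 and Agpat2 hold 3 matches each, and Srebf2 holds 5. Insig1 is chr5:28071162-28071411 and Idi1 is chr13:8885356-8885605, both on the plus strand, and Sc4mol is chr8:64733579-64733828 on the minus strand. These 3 rose and had no KLF3 peak assigned. Scd1, which also rose, had no RefSeq promoter and so is not shown. It did have a KLF3 peak assigned, with an enrichment of 13.4 at 18974 bp from the start.
Insig1: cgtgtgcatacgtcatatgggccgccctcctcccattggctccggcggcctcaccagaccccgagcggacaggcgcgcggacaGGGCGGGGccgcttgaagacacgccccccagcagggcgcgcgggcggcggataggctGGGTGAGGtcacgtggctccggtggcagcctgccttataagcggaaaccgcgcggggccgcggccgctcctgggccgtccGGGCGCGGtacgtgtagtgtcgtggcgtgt
Sc4mol: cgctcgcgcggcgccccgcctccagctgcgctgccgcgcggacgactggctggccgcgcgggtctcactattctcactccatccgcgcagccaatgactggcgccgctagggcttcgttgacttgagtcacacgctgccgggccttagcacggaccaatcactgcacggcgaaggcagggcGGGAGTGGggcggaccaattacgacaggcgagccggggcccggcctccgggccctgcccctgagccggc
Idi1: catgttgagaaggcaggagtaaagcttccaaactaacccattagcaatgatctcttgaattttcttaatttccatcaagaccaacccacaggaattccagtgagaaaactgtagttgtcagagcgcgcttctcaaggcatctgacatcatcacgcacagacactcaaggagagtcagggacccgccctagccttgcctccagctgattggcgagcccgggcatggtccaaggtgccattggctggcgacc
Insig1 holds 3 matches, Sc4mol 1 and Idi1 0. The NF-Y box CCAAT, or its reverse complement ATTGG, occurs 3 times in the window of Sc4mol, 2 times in that of Idi1 and 1 time in those of Insig1 and Srebf2, and 0 times in those of Mid1ip1 and Agpat2. Acat2, Elovl6 and Scap, which were not called, also have the KLF core and no CCAAT in their windows, so this pattern is not limited to the genes that fell. A match is a run of letters, not a measured site.

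In the mevalonate arm, 1 of 6 tested members rose, none fell, and all 6 differences were above 0 with a median of 0.46. Idi1, which converts isopentenyl diphosphate to its reactive isomer, had 20.6 FPKM in J2E and 42.8 in J2E-KLF3-ER. Its difference of 1.02 had a q-value of 0.00408 in the authors' deposited table, and Idi1 ranked 19th by size among the 79 genes that rose. Its row lies on mm9 at chr13:8884851-8891642. Mvd, the decarboxylase that makes isopentenyl diphosphate, had a like difference of 1.03 but at a low level, 2.23 and 5.59 FPKM. It missed the threshold, with a q-value of 0.0513 in the authors' deposited table. Fdps, which makes farnesyl diphosphate, was at 23.2 and 34.6 FPKM, a difference of 0.56 with a q-value of 0.113 in the authors' deposited table.

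The remaining mevalonate genes differed less. Mvk, the mevalonate kinase, was at 9.0 and 11.8 FPKM, and Acat2, the acetyl-CoA acetyltransferase at the start of the path, at 14.2 and 16.6. Pmvk, the phosphomevalonate kinase, was at 11.4 and 12.4 FPKM, a difference of 0.11 with a q-value of 0.901 in the authors' deposited table. Hmgcs1, the HMG-CoA synthase, was listed at 0 in both groups and not tested. Its row was placed on an unplaced fragment of chromosome 13, so the 0 says nothing of the gene's level at its usual locus.

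From squalene to cholesterol, 1 of 9 tested members rose, none fell, and 8 of the 9 differences were above 0 with a median of 0.37. Sc4mol (now Msmo1), the oxidase that starts removal of the methyl groups at carbon 4 of the sterol ring, rose from 26.8 to 52.2 FPKM. Its difference of 0.94 had a q-value of 0.00408 in the authors' deposited table, and it ranked 27th among the 79 genes that rose. On mm9 it lies at chr8:67196941-67212375. Lss, which closes squalene epoxide into lanosterol, was at 16.7 and 25.3 FPKM, and Cyp51, the lanosterol demethylase, at 24.0 and 34.5. Their q-values in the authors' deposited table, 0.0715 and 0.0736, missed the threshold with differences of 0.57 and 0.50.

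Fdft1, the squalene synthase, was at 9.74 and 12.7 FPKM, and Sqle, which oxidises squalene, at 16.4 and 21.0, with differences of 0.35 and 0.34. The later enzymes were mixed in level. Nsdhl, which works after Sc4mol on the same methyl groups, was at 21.3 and 24.7 FPKM, Hsd17b7, the ketosteroid reductase of that step, at 3.67 and 5.02, and Dhcr7, the last reductase of the path to cholesterol, at 4.79 and 6.74. Ebp, the sterol isomerase that also binds tamoxifen-like drugs, was the one tested enzyme below 0 in this group, at 3.32 and 1.92 FPKM. Its difference of -0.56 had a q-value of 0.361 in the authors' deposited table. Tm7sf2, a sterol reductase, was at 2.76 and 2.60 FPKM and was not tested.

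Among the regulators, 1 of 5 tested members rose and 1 fell. Insig1, which holds the SREBP complex in the endoplasmic reticulum and is itself a classic SREBP target, rose from 70.9 to 104 FPKM. The difference of 0.55 had a q-value of 0.0271 in the authors' deposited table, and its size ranked 74th among the 79 genes that rose. Its row lies on mm9 at chr5:28397951-28405202. Insig2, its relative, was at 1.89 and 1.4 FPKM and was not tested. Srebf1 was at 13.9 and 19.4 FPKM, Srebf2 at 30.0 and 32.2, and Scap at 11.5 and 13.1. The q-values of these 3 in the authors' deposited table were 0.455, 0.829 and 0.685, so the genes for the factors and their escort were not called.

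Mid1ip1 went the other way. This small protein promotes the polymerisation and activity of acetyl-CoA carboxylase, the committed step of fatty acid synthesis. It fell from 8.81 to 2.51 FPKM, a difference of -1.48 with a q-value of 0.00408 in the authors' deposited table. It ranked 16th by size among the 183 genes that fell, and lies on mm9 at chrX:10294490-10296828. Agpat2, the acyltransferase that makes phosphatidic acid on the way to phospholipids and triglycerides, fell from 11.5 to 3.36 FPKM, a difference of -1.53 with the same q-value of 0.00408 in the authors' deposited table. It ranked 14th of the 183, at chr2:26448576-26459937. Since both were low in J2E-KLF3-ER, the size depends on the value added before the log: with 5 FPKM in place of 1 the differences were -0.88 and -0.99, and with none -1.81 and -1.78.

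In fatty acid synthesis, none of 5 tested members was called, and all 5 differences were above 0, from 0.12 to 0.50. Fasn, the fatty acid synthase, was at 62.9 and 78.3 FPKM. Acaca, the acetyl-CoA carboxylase that Mid1ip1 acts on, was at 21.6 and 26.6 FPKM, and the q-values of Fasn and Acaca in the authors' deposited table were 0.28 and 0.337. Thus the carboxylase gene was slightly higher where Mid1ip1 was lower. Acly, which splits citrate into acetyl-CoA, was at 29.7 and 39.3 FPKM, Acss2, which makes acetyl-CoA from acetate, at 2.78 and 4.37, and Me1, the malic enzyme that supplies NADPH, at 25 and 27.2. Stard4, a carrier of sterols between membranes, was at 47.7 and 62.1 FPKM, a difference of 0.37 with a q-value of 0.205 in the authors' deposited table.

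Of the 6 enzymes that lengthen or desaturate fatty acids, 1 rose and none fell, and all 6 differences were above 0 with a median of 0.38. Scd1, a stearoyl-CoA desaturase, rose from 7.88 to 13.2 FPKM, a difference of 0.68 with a q-value of 0.0192 in the authors' deposited table. It ranked 54th among the 79 genes that rose, and its row lies on mm9 at chr19:44468939-44482199. Its paralog Scd2 in the same gene cluster had the higher level, 26.8 and 34.3 FPKM, and a difference of 0.34 with a q-value of 0.252 in the authors' deposited table. How reads shared by these near copies were counted is not given in the sources used here. Elovl5 and Elovl6, elongases of unsaturated and of saturated chains, were at 12 and 16.3 and at 34.2 and 37.9 FPKM. Fads1 and Fads2, the desaturases of polyunsaturated chains, were at 10.0 and 13.9 and at 33.6 and 37.5 FPKM. None of these 4 was called.

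**Figure D2:**
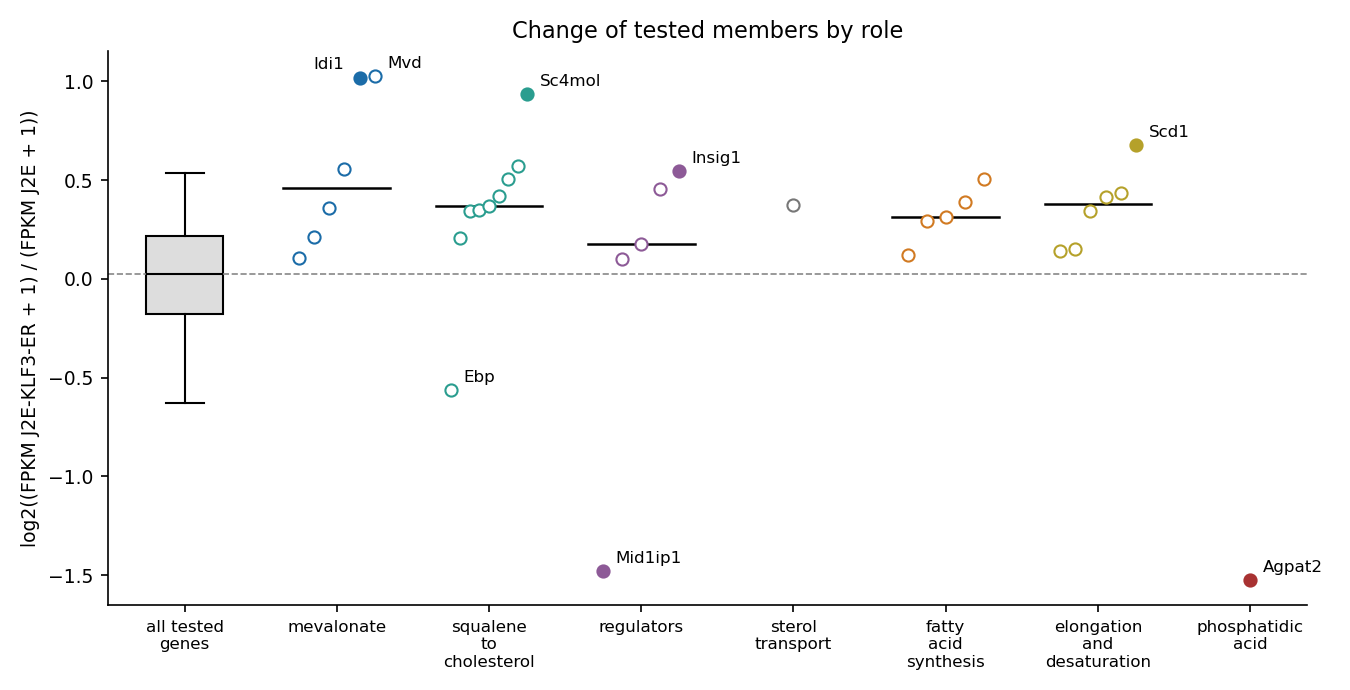
Difference of each tested member between J2E-KLF3-ER and J2E, as log2 of the ratio of FPKM + 1, grouped by role. Filled points are called, bars are role medians, and the box gives the median, quartiles and 5th and 95th percentiles of all tested genes, whose median is dashed. Most points sit between 0 and 1, with Mid1ip1 at -1.48 and Agpat2 at -1.53.

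Chromosomes differed in their typical change, with medians from -0.06 to 0.19 on those that carry members. Measured from the median of its own chromosome, the median member stood at 0.27, and 29 of 33 tested members were above 0. The 16 tested members on chromosomes 1 and 10 to 19, where all 4680 tested genes had a median of 0.10, had a median of 0.36, with 2 risen, 0 fallen and 16 above 0. The 17 on chromosomes 2 to 9 and X, where 4938 genes had a median of -0.03, also had a median of 0.36, with 2 risen, 2 fallen and 14 above 0. The difference between the sets of chromosomes was not tested. Idi1 moved most by this measure among the genes that rose, from 1.02 to 0.83.

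KLF3 peaks were common near these genes. The authors assigned 21 of their 4579 KLF3 peaks to 19 of the 36 members, by nearest start site at any distance. Among tested genes, 17 of 33 members (51.5%) had one, against 32.3% of all tested genes. The difference was smaller close to the start: 12 tested members (36.4%) had a KLF3 summit within 1 kb, against 29.0% of all tested genes. These shares are given as counts, with no test. The enrichment ratio of a peak is the authors' own value, and its median over the member peaks was 7.60, against 7.94 over the list. By their annotation 13 member peaks were promoter, 5 distal, 2 intron and 1 UTR. That is 61.9% promoter and 23.8% distal, against 66.5% and 8.80% of the whole list. Of the 5 distal peaks, 3 were assigned to Scd1 or Scd2.

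For KLF1, 14 of 3800 peaks were assigned to 12 members, all of them tested. That is 36.4% of the tested members, against 19.1% of all tested genes. Within 1 kb of the start only 4 members had a KLF1 summit, 12.1% against 10.7%. The excess over all tested genes thus lay in peaks farther away: 8 of the 14 (57.1%) were annotated distal, against 23.4% of the whole list. Of these 8, 4 were assigned to Scd1 or Scd2, paralogs of 1 gene cluster on chromosome 19, so they are not 4 independent loci. The median enrichment was 12.3 against 9.72 over the list.

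The strongest KLF1 peak of any member covered the start of Mid1ip1, whose promoter was shown with 3 KLF core matches. It lies at chrX:10294173-10294797 on mm9, and had an enrichment of 47.2 and rank 48 of 3800. The KLF3 peak at the same place, chrX:10294256-10294659, had an enrichment of 21.2 and rank 177 of 4579, and the summits lay 6 bp apart. Srebf2 had the strongest KLF3 peak of any member, at chr15:81977438-81977874, with an enrichment of 25.9 and rank 66. It overlapped a KLF1 peak with an enrichment of 27.1, and the summits were 81 and 25 bp upstream of the start. At Stard4 the KLF3 and KLF1 peaks had enrichments of 17.7 and 15.7, with summits 123 and 96 bp upstream. Me1 completed the peaks annotated as promoter for both factors, with weaker peaks of 7.63 and 8.35. By the authors' annotation both factors thus had peaks at 4 member promoters. Among these the RNA of Mid1ip1 was called, and that of Srebf2, Stard4 and Me1 was not. Of all 1253 tested genes with peaks of both factors at any distance, 0.479% rose and 4.87% fell. The shares for genes with promoter peaks of both factors were not computed.

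Scd1 and Scd2 together had 8 of the peaks assigned to members, 4 of each factor. For Scd2 a pair lay upstream of the start, with summits at 9475 bp for KLF3 and 9445 bp for KLF1, with enrichments of 15.3 and 13.4. A second pair lay farther upstream, with the KLF3 summit at 26552 bp and an enrichment of 7.05, and the KLF1 summit at 26439 bp and 42.9, the second highest KLF1 peak of any member. A KLF3 peak of 7.5 in the UTR, 177 bp past the Scd2 start, had no KLF1 partner. For Scd1 a pair lay past the gene, at chr19:44463047-44463383 for KLF3 and chr19:44462989-44463456 for KLF1, with enrichments of 13.4 and 29.9 and summits 18974 and 18968 bp from the start. A further KLF1 peak of 7.24 lay 21645 bp from that start. Peaks of both factors also overlapped upstream of Elovl5, at 8.83 and 8.79, and in Dhcr7, at 7.60 and 7.14. The Dhcr7 pair was annotated intron, with summits 6891 and 6843 bp past the start the authors used. RefSeq lists a further Dhcr7 start about as far along, with 5 KLF core matches in its window (chr7:143829964-143830263 on GRCm38.p6). Whether the pair lies at that promoter was not tested, as the builds differ.

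In all, 9 members had peaks of both factors, 27.3% of tested members against 13.0% of tested genes. In 8 of the 9 the peaks overlapped by at least 1 bp, as 9 pairs with summits 6 to 113 bp apart. Pmvk was the exception, with a KLF3 peak of 4.35 at 2191 bp upstream and a KLF1 peak of 9.07 at 16945 bp downstream.

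A KLF3 peak without a KLF1 peak was assigned to 10 members. The highest was at Acly, with an enrichment of 13.4 at 80 bp upstream, and the next at Scap, 10.3 at 26 bp downstream. Srebf1 had a peak of 8.22, annotated intron and 10114 bp past the start the authors used. RefSeq lists other Srebf1 starts inside the gene, and the window at chr11:60210422-60210721 on GRCm38.p6 has 4 KLF core matches. Whether this peak lies at that promoter was not tested, as the builds differ. The promoter peaks of Tm7sf2, Acss2, Fads2, Lss and Fdft1 ran from 7.60 down to 5.53. The peak at Agpat2, the second gene that fell, was weak by this measure: chr2:26459895-26460124, an enrichment of 5.23 and rank 4039 of 4579, 114 bp upstream. Insig2 had the lowest, 4.28. A KLF1 peak alone was assigned to 3 members: Elovl6 in an intron (17.1), Insig1 at 28513 bp upstream (11.3) and Fdps at 13793 bp upstream (6.74). For the remaining 14 members no peak of either list was assigned, among them Idi1, Sc4mol, Mvd, Cyp51, Sqle, Fasn and Acaca.

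**Figure D3:**
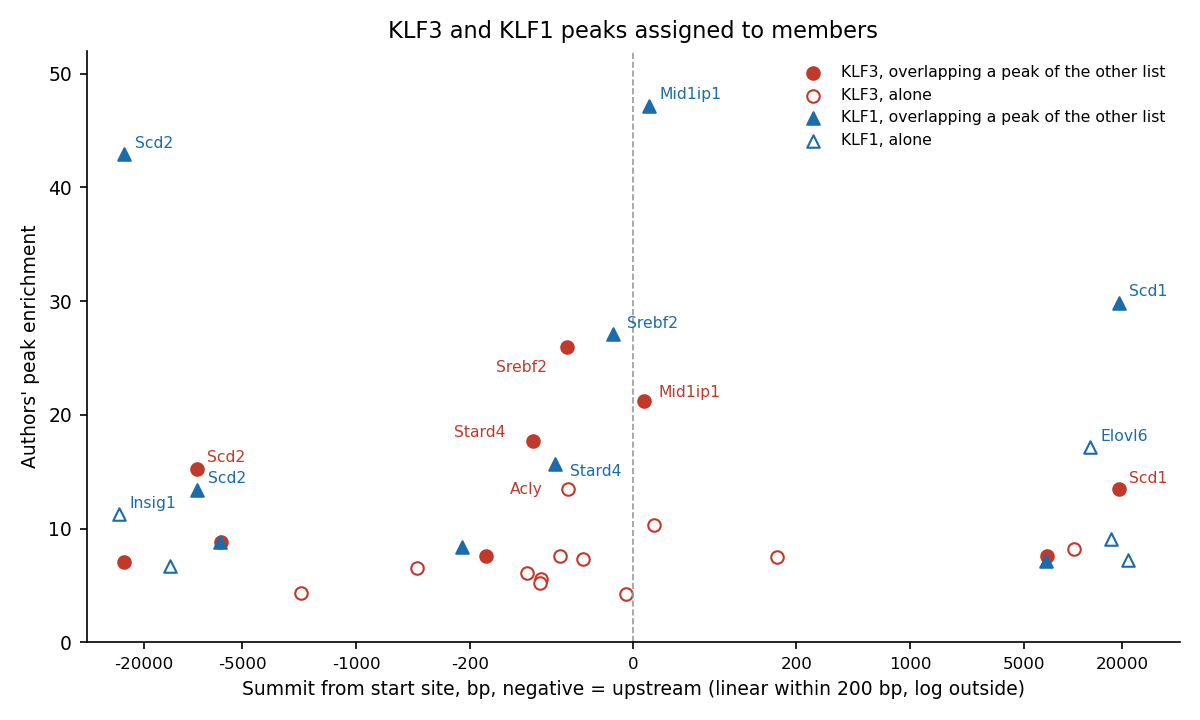
Peaks assigned to members: the distance of each summit from the start site against its enrichment, with colour and shape for the factor and filled symbols where a peak of the other list overlaps. The distance axis is linear within 200 bp of the start and logarithmic beyond. KLF3 peaks cluster at the start, and the high KLF1 peaks fall both at the starts of Mid1ip1 and Srebf2 and far from the starts of Scd1 and Scd2.

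Assignment by nearest start hides a few peaks beside members. A KLF3 peak with an enrichment of 8.54, assigned to Mmab, lay 235 bp outside the interval of Mvk, its head-to-head neighbour. A KLF1 peak of 14.1 and a KLF3 peak of 6.01, both assigned to Rusc1, lay 248 and 201 bp outside Fdps. Those were past the end of Fdps, not at its start. A KLF3 peak of 8.22, assigned to Nadsyn1, lay 189 bp outside Dhcr7, on the side of its start. A KLF3 peak of 10.5, assigned to Ctsb, lay 37 bp outside Fdft1, past its end. A KLF3 peak of 9.7, assigned to Vps51, lay inside the interval listed for Tm7sf2, at the end away from its start. The interval listed for Srebf1 also covers Rai1, where 5 KLF1 and 3 KLF3 intron peaks were assigned to Rai1. None of these is counted above.

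The members' RNA differences were then read by assigned peaks, beside all tested genes with the same peaks. The 13 tested members with no assigned peak had a median difference of 0.36, with 2 risen and 0 fallen. All 5927 tested genes with no peak had a median of 0.05, with 0.995% risen and 1.30% fallen. With a KLF3 peak alone, 8 members had a median of 0.37, with 0 risen and 1 fallen, where all 1858 such genes had a median of 0.02, with 0.538% risen and 1.67% fallen. With peaks of both factors, 9 members had a median of 0.34, with 1 risen and 1 fallen, where all 1253 such genes had a median of -0.08, with 0.479% risen and 4.87% fallen. The 3 with a KLF1 peak alone were at 0.14, 0.55 and 0.56, and the one at 0.55, Insig1, rose, where all 581 such genes had a median of 0.02, with 0.688% risen and 2.41% fallen. Looking only at the 12 tested members with a KLF3 summit within 1 kb of the start, 0 rose, 2 fell and 10 were above 0, from -1.53 to 0.57 with a median of 0.26. All 2791 tested genes of that kind had a median of -0.01, with 0.466% risen, 2.58% fallen and 47.6% above 0. Both genes that fell were among these 12, and none of the 4 that rose was. The difference between these classes was not tested.

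**Figure D4:**
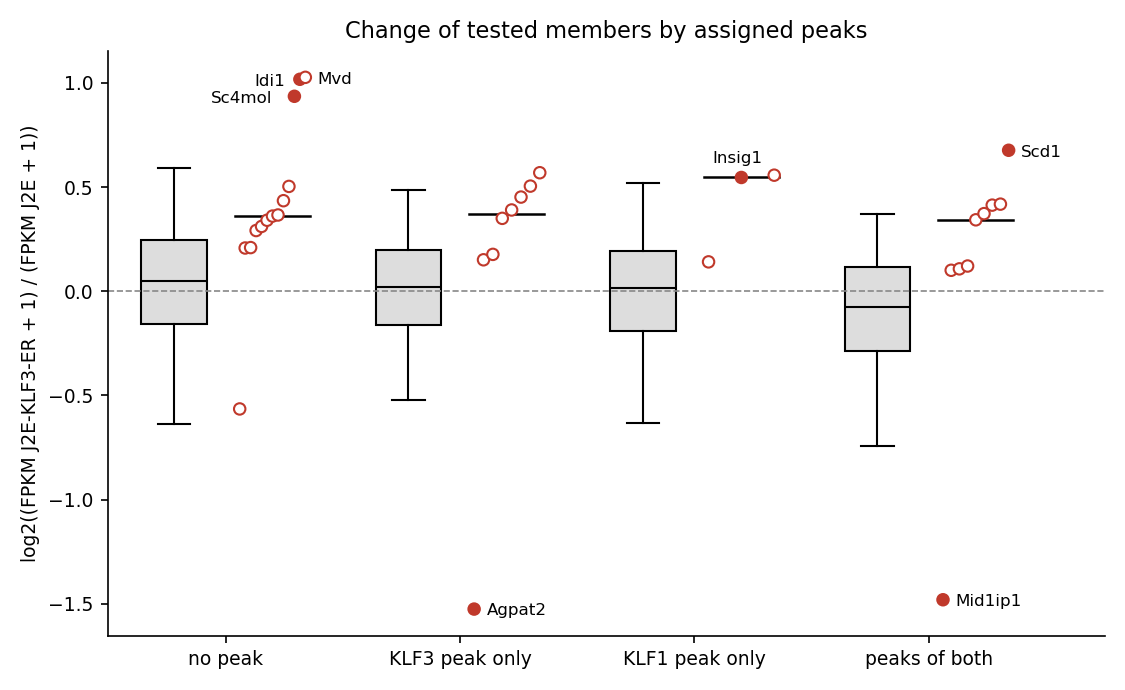
Difference of each tested member in log2 of the ratio of FPKM + 1, by the peaks assigned to it (none, KLF3 alone, KLF1 alone, both). Filled points are called, bars are class medians, and each box gives the median, quartiles and 5th and 95th percentiles of all tested genes of that class. The bars lie at 0.36, 0.37, 0.55 and 0.34, and the lowest points are Mid1ip1 (both factors) and Agpat2 (KLF3 alone).

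The authors' KLF1 list also names, beside each peak, genes marked up or down in a comparison headed K1 vs K1ER, whose own values are not analysed here. There the authors' deposited table names 557 genes as up and 132 as down. Of the members, 4 were named as up (Mid1ip1, Scd1, Scd2 and Ebp), 12.1% of the tested members against 4.16% of all tested genes. None was named as down, and the share of all tested genes named so was not computed. Names stand only beside KLF1 peaks, which more tested members had (36.4% against 19.1%), so these shares are not independent of the peak counts. The first 3 had KLF1 peaks of their own. The nearest KLF1 summit whose entry names Ebp lay 222037 bp from its start. The files do not say which of the compared cells were higher for a gene named as up, so these names are not set against the direction in J2E-KLF3-ER.

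Across the list, 29 of the 36 members had a promoter in the RefSeq table, searched on both strands from 250 bases before to 50 after the start, a gene counting once if any of its promoters matched. The other 7 are Fdps, Fads1, Scd2, Sqle, Fdft1, Stard4 and Scd1. The KLF core was in 22 of 29 (75.9%), against 70.4% of the 7611 tested genes with a promoter and 51.9% of all 27025 genes with one. The beta-globin CACCC box CCACACCC, a special case of the core, was in 2 (Acat2 and Dhcr7), 6.90% against 4.31% and 4.09%. The CCAAT box differed more from the tested genes: 22 of 29 members (75.9%) held it, against 43.4% of tested genes and 41.1% of all genes. The GC box GGGCGG, which can overlap the KLF core, was in 24 (82.8%), against 68.6% and 38.2%. Of the 26 tested members with a promoter, 20 (76.9%) held the KLF core, 19 (73.1%) CCAAT and 21 (80.8%) the GC box. The sterol regulatory element letters TCACNCCAC were in Hmgcs1 alone (3.45%), against 1.29% of tested genes and 1.44% of all genes with a promoter. The SREBP E-box letters TCANNTGA were in Insig2 alone (3.45%), against 8.0% and 9.56%. Neither gene was tested, so 0 of the 26 tested members with a promoter held either.

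Related pathways were read for comparison from lists of other genes. Of all tested genes 0.821% rose, 1.90% fell and 53.4% were above 0, with a median of 0.02. At these shares, 0 called among 4 to 24 tested genes says little. Of 25 other sterol genes 21 were tested, 1 rose and 0 fell, the median was 0.19 and 17 (81.0%) were above 0. Sc5d, a sterol desaturase, was at 30.2 and 36.8 FPKM and was not called. Of 8 genes of sterol efflux and the LXR receptors 4 were tested and 0 were called, with a median of -0.15 and 1 above 0. The differences of these tested genes ran from -0.35 to 0.70. The 2 highest of these by FPKM were Nr1h2, a sterol-sensing receptor, at 23.9 and 18.5 FPKM, and Lpcat3, which remodels phospholipids, at 18.9 and 17. Of 34 names listed for other fatty acid and lipid genes 33 had a row, 24 were tested and 0 were called. Their tested differences ran from -0.44 to 0.60, with a median of 0.05 and 14 (58.3%) above 0. Hsd17b12 and Ptplad1, which work in the elongation cycle with the Elovl enzymes, were at 40.3 and 35.6 and at 36.9 and 32.4 FPKM. Of 20 genes of fatty acid oxidation 14 were tested and 0 were called, with a median of 0.08 and 11 (78.6%) above 0. The tested differences there ran from -1.08 to 0.54. Hadhb and Eci1, enzymes of that path, were at 17.4 and 18.3 and at 12.9 and 15.3 FPKM.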

How the data were processed

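RNA levels in 6 labelled-RNA libraries and peaks from 4 chromatin libraries were read from the authors' files. Per the file headers, the authors deposited FPKM, a test score, a log2 fold change, and p-values with q-values for each gene, with 1 FPKM per group. Each deposited peak list holds an enrichment ratio, a summit and the nearest start site for each peak. The submitters' processing notes name TopHat2 2.0.10, MACS 1.4.2 and MACS2, and the mm9 build. What each tool did, and which made the RNA comparison, is not given in the sources used here. The third J2E library was treated apart, with ethanol, but nothing in the labels says that the 2 tamoxifen-treated ones were separate cultures, and the deposited p-values may in part measure technical spread.

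The 93 blank rows were dropped, leaving 9619 tested genes, 13530 not tested, 158 with too little data and 2 with too much. Recomputing the Benjamini-Hochberg adjustment over the 9619 genes gave the deposited q-values within 5.26e-07. The smallest deposited p-value, 5e-05, was shared by 118 genes. As the table holds no value per library, the planned limma fit was replaced by its stated fallback, the authors' q-value. The number of unused per-sample columns is 0. Differences used a pseudocount of 1, and peaks overlapped from 1 bp. Distances are from the summit to the start the authors gave, so a peak at another start of the same gene counts as far away. The members and all lists were chosen with earlier results of these data known. All members are named, called members and those with a peak with their values, and from each other list the called genes (at most 4) or the 2 highest by FPKM. Sc5d was chosen after its values were seen. The values of 1 gene covered by this rule are not reported here. Calculations used Python 3.11.15, pandas 2.3.3, NumPy 2.4.6, statsmodels 0.14.6 and matplotlib 3.10.9, and were tested on simulated data.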

Additional observations from a re-analysis of the deposited data

How the results depend on the processing

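The count of members that rose followed the threshold on the authors' deposited q-value: 4 below 0.05, 7 below 0.1 and 2 below 0.01, and 14 at an unadjusted p-value below 0.05. The count that fell was 2 at each of these, and adjusting only over genes with at least 1 FPKM in both groups left 4 and 2. The median difference over all 36 members was 0.35, and from 0.25 to 0.38 over 8 alternatives, which changed the pseudocount, the members kept or the centring (0.25 by chromosome), or took members without a peak, chosen after seeing the data. Centring by chromosome left the sign of all 6 called members as it was, and their other alternatives changed only the pseudocount, which cannot change a sign. Of the 19 members with a KLF3 peak, 9 had one in the upper part of the list by enrichment. Of the 12 with a KLF1 peak, 4 had one within 1 kb, 4 within 5 kb and 7 in the upper part of the list by enrichment. Counting any peak inside or within 1 kb of a member's interval, also chosen after seeing the data, gave 18 and 8. No paired analysis was possible because the RNA table holds 1 value per group, so no library could be left out either, including the ethanol-treated J2E library. The depth of the libraries is unknown, and each factor had 1 chromatin library, so peak counts carry no replicate error.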
